A study of Mus musculus with 4 samples.

Results

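The hexosamine biosynthetic pathway and the O-GlcNAc enzymes were followed as 10 genes chosen by name: Ogt, Oga, Gfpt1, Gfpt2, Gnpnat1, Pgm3, Uap1, Nagk, Eogt and Hcfc1. All 10 were among the 13903 genes with a value, and 9 of them passed the minimum mean of 10 reads per 1000000 (CPM) used for comparisons between libraries, as did 8963 genes in all. The RNA came from livers of OGT-Floxed animals of the C57BL/6J background. Every animal was given CDE, a diet without choline and with added ethionine that injures the liver and provokes a ductular and fibrotic response. The virus was AAV8-TBG-CRE for the label OGT-KO and AAV8-TBG-eGFP for the label control. TBG is a hepatocyte promoter, so Cre acts in hepatocytes, and the whole-liver RNA also holds the intact Ogt of macrophages, stellate, endothelial and bile duct cells. The tissue was collected directly after the diet or once 7 days of recovery had passed. Each of the 4 combinations was sequenced as 1 library, for which RNA of 3 mice was pooled equally. The ages of the mice, the deleted exons of Ogt, the interval between virus and diet and what was fed during recovery were not given in the sources used here.

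O-GlcNAcylation is the attachment of a single N-acetylglucosamine to serines and threonines of nuclear and cytoplasmic proteins. O-GlcNAc transferase (Ogt) adds the sugar and O-GlcNAcase (Oga) takes it off, and in many tissues the transcripts of the 2 enzymes are adjusted to one another. The donor, UDP-GlcNAc, is built from fructose-6-phosphate, glutamine, acetyl-CoA and UTP by the hexosamine pathway, in which Gfpt1 or Gfpt2 catalyses the rate-limiting step and Gnpnat1, Pgm3 and Uap1 the following steps. In liver this pathway also feeds the N-glycans of secreted plasma proteins.

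The libraries held 19972699 to 22866431 reads on the listed genes, so that 3 reads, taken as the floor, came to 0.131 to 0.150 CPM. The libraries with the same label were alike in composition and those with different labels were not: the 100 most abundant genes took 34.1% and 34.3% of the reads under the label OGT-KO and 42.8% and 45.0% under the label control. CPM is a share of a fixed total, and the median of all genes compared was not 0 between labels. On the log2(CPM + 1) scale it was 0.51 higher for the label OGT-KO with no recovery and 0.48 higher after 7 days. With median-ratio scaling, which centres the libraries on the middle of the listed genes instead, these medians were -0.19 and -0.18. Differences are given at the deposited scaling and relative to that median, and a difference of at least 2-fold (1 on the log2 scale) is called past 2-fold. With 1 library per condition no difference between 2 conditions was tested against the spread between livers, and no fit over all 4 libraries was run. All intervals are 95% intervals of the read ratio and cover counting error only.

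The promoters of 4 genes of the set shared the 6 letters GACGTG, the core of the element read by bZIP factors of the unfolded protein response, and these are the genes of the hexosamine pathway proper for which a window was at hand. The windows span 250 bases before to 50 bases after the RefSeq transcription start (GRCm38.p6), and 8 of the 10 genes had one; Eogt and Gnpnat1 did not. GACGTG was searched on both strands. It was found in Gfpt1, Gfpt2, Pgm3 and Uap1, which is 4 of 8 genes, and in 7.15% of the 27025 genes with windows. The motif was chosen after the windows had been seen, so the comparison is a description. The 30 bases around each match are given on the gene's own strand, 5′ to 3′, with the motif or its reverse complement in capitals.
Gfpt1, chr6:87042712-87042741, plus strand, 122 bases before the start: tcgagcccctgcCACGTCgctacccgcagc
Gfpt2, chr11:49793905-49793934, plus strand, 238 bases before the start: ttgctaaagtttCACGTCtaatatgactga
Pgm3, chr9:86571801-86571830, minus strand, 24 bases after the start: gcaaagctgggcCACGTCtgcgaggtctga
Uap1, chr1:170174945-170174974, minus strand, 2 bases after the start: ttctcggtcgctGACGTGtcgggccggcag
The 4 matches do not share their distance from the start. For Gfpt1, the entry enzyme the 250 bases before the start (chr6:87042596-87042845, plus strand) are 72% G or C, with the same match in capitals.
Gfpt1 upstream: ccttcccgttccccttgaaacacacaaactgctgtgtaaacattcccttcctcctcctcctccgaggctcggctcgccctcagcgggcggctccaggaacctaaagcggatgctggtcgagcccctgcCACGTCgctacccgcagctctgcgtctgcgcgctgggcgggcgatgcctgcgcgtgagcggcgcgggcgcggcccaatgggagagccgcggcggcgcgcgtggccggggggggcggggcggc
A different 6-letter run, TTCCGG, the core read by ETS factors, was found on either strand in Ogt, Nagk, Pgm3 and Hcfc1, 4 of 8, beside 16.7% of all genes with windows. For the 3 of these genes outside the pathway proper, Ogt, Nagk and Hcfc1, 1 match each is shown with the run in capitals.
Ogt, chrX:101640041-101640070, plus strand: aacagaaagtagTTCCGGcttgtgttgttt
Nagk, chr6:83794970-83794999, plus strand: tctgccagctacTTCCGGctggcccttggc
Hcfc1, chrX:73966367-73966396, minus strand: gggctccgccatTTCCGGcgggggagggct
ACTACA, the core read by THAP11 and ZFP143, which recruit HCF-1, was in 0 of the 8 windows and in 11.8% of all genes. TTCCGG shares the letters CCGG with its own reverse complement, while in Pgm3, the gene with matches to both cores, the matches lie apart. The shares over all genes were not taken from windows of like G and C content, so the comparisons for each motif are descriptions. A match or its absence is a statement about the letters only.

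Ogt, the targeted gene, was not consistently lower under the label OGT-KO. Ogt (ENSMUSG00000034160, chromosome X, plus strand, 22 exons) was at 55.3 CPM under OGT-KO and 64.7 CPM under control with no recovery. After 7 days it had 77.7 CPM under OGT-KO and 55.7 CPM under control. The OGT-KO library was thus the lower of the pair at the end of the diet and the higher once recovery had passed. The ratio of OGT-KO to control was 0.855 (0.792 to 0.924) before recovery and 1.40 (1.29 to 1.51) afterwards, and the log2 differences were -0.22 and 0.47. Relative to the median gene they were -0.73 and -0.01, and with median-ratio scaling -0.93 and -0.20, so the direction after 7 days turned with the scaling. The label is therefore written as a label throughout. The 2 Ogt differences lay 0.70 apart, more than for 92.0% of genes, and the difference was of opposite sign at the 2 time points in 9.22% of genes. Each value sums all exons of the gene, so reads from a transcript that lacks the deleted exons could be counted with the rest.

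Oga (ENSMUSG00000025220, chromosome 19, minus strand, 16 exons, listed as Mgea5 in the annotation) was lower under OGT-KO at both time points. It had 46.5 CPM under OGT-KO and 57.7 CPM under control with no recovery, and then 57.0 and 70.2 CPM after recovery. The control library was the higher within each time point, although the OGT-KO library after 7 days and the control library with no recovery were nearly level. The ratios were 0.805 (0.741 to 0.875) and 0.812 (0.752 to 0.876). The log2 differences, -0.31 and -0.30, were below those of all but 15.4% and 12.6% of genes, and were -0.81 and -0.77 relative to the median gene. With median-ratio scaling they were -1.01 and -0.97.

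The ratio of Ogt to Oga reads does not depend on the scaling of the libraries. It was 1.19 (1.10 to 1.29) under OGT-KO and 1.12 (1.04 to 1.21) under control with no recovery, and these intervals overlap. After 7 days it was 1.36 (1.27 to 1.47) under OGT-KO and 0.793 (0.732 to 0.859) under control. The control library after 7 days was the only one of the 4 with fewer reads of Ogt than of Oga.

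**Figure D1:**
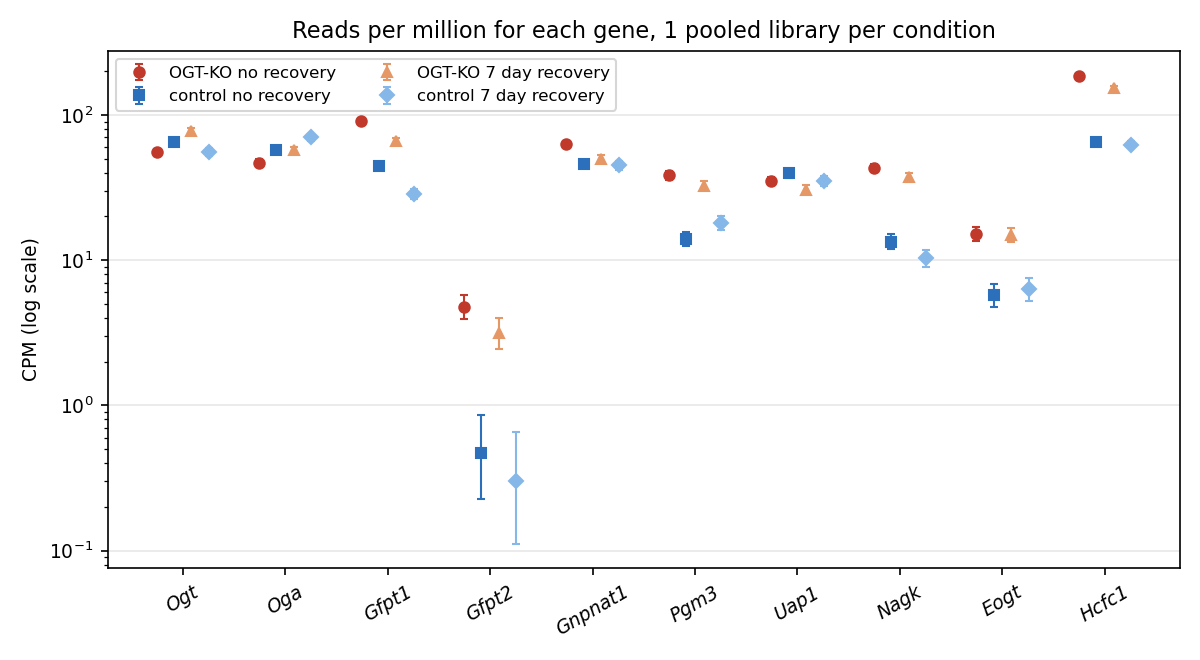
CPM (log axis) of the 10 genes in the 4 libraries; each point is 1 library made from 3 pooled mice and the bars are 95% exact intervals for counting error only. Both OGT-KO libraries (circle, triangle) lie above both control libraries (square, diamond) for Gfpt1, Gfpt2, Gnpnat1, Pgm3, Nagk, Eogt and Hcfc1, and below them for Oga and Uap1; for Gnpnat1, Oga and Uap1 the bars of some OGT-KO and control libraries overlap.

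The entry enzymes of the hexosamine pathway were both higher under OGT-KO. Gfpt1 (ENSMUSG00000029992, chromosome 6), the glutamine-fructose-6-phosphate amidotransferase of most tissues, had 90.7 CPM under OGT-KO and 44.8 CPM under control with no recovery. After 7 days it had 66.2 and 28.6 CPM. Both OGT-KO libraries were above both control libraries. The ratios were 2.02 (1.87 to 2.19) and 2.31 (2.10 to 2.55). The log2 differences of 1.0 and 1.18 were 0.49 and 0.70 relative to the median gene and 0.29 and 0.51 with median-ratio scaling. Gfpt1 thus stood on the 2-fold line itself with no recovery.

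Gfpt2 (ENSMUSG00000020363, chromosome 11), the second isoenzyme, which is scarce in hepatocytes, had 109 reads under OGT-KO and 10 under control with no recovery, and 71 and 6 reads after recovery. In CPM these are 4.77, 0.47, 3.15 and 0.30. Its mean was under the minimum, so it was not counted among the genes compared. The ratio of reads was 10.1 (5.30 to 21.7) and 10.5 (4.58 to 29.5), the largest of the set at each time point, on few reads. Gfpt2 made up 5.0% and 4.54% of all Gfpt reads under OGT-KO and 1.04% at each time point under control.

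The middle and last steps of the pathway did not share one pattern. Pgm3 (ENSMUSG00000056131, chromosome 9), the phosphoacetylglucosamine mutase, had 38.4 CPM under OGT-KO and 14.0 CPM under control with no recovery, and then 32.6 and 18.0 CPM after recovery. Both OGT-KO libraries were above both control libraries, by ratios of 2.75 (2.40 to 3.14) and 1.81 (1.59 to 2.06). The log2 differences were 1.39 and 0.82, of which the second is short of 2-fold, 0.89 and 0.34 relative to the median gene, and 0.71 and 0.16 with median-ratio scaling. The exons of Pgm3 overlap those of Dop1a on the opposite strand, and strandedness of the counting was not given in the sources used here. Dop1a, named for this overlap, differed by 0.97 and 0.36, in the same direction as Pgm3 and by less.

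Gnpnat1 (ENSMUSG00000037722, chromosome 14), which acetylates glucosamine-6-phosphate, had 62.9 CPM under OGT-KO and 45.9 CPM under control before recovery, and after it 50.1 and 44.9 CPM. These log2 differences of 0.45 and 0.15 were -0.06 and -0.32 relative to the median gene and turned to -0.26 and -0.52 with median-ratio scaling. The OGT-KO library with no recovery stood above the other 3, which lay within 44.9 to 50.1 CPM. Its exons overlap those of Styx on the opposite strand, and Styx, named for this overlap, differed by 0.51 and 0.19.

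Uap1 (ENSMUSG00000026670, chromosome 1), the pyrophosphorylase that makes UDP-GlcNAc in the last step, had 35.1 CPM under OGT-KO and 39.6 CPM under control with no recovery, and then 30.6 and 35.1 CPM after recovery. Its ratios, 0.887 (0.804 to 0.978) and 0.871 (0.783 to 0.969), were closer to 1 than those of Oga, the other gene that was lower at both time points. The log2 differences were -0.17 and -0.19 at the deposited scaling, -0.68 and -0.67 relative to the median gene, and -0.87 and -0.86 with median-ratio scaling. The 4 libraries lay within 30.6 to 39.6 CPM.

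Set against Uap1 within each library, Gfpt1 and Pgm3 were shifted between the labels. Part of this comes from Uap1, which was at -0.68 and -0.67 relative to the median gene. A gene at the median would therefore also be shifted upward against Uap1 under OGT-KO. Relative to the median gene, Gfpt1 was at 0.49 and 0.70 and Pgm3 at 0.89 and 0.34. There were 2.58 (2.38 to 2.81) Gfpt1 reads per Uap1 read under OGT-KO and 1.13 (1.03 to 1.24) under control with no recovery. After 7 days there were 2.16 (1.97 to 2.37) and 0.815 (0.728 to 0.911). The Pgm3 reads per Uap1 read were 1.09 (0.993 to 1.20) and 0.353 (0.308 to 0.404) at the end of the diet, and 1.06 (0.957 to 1.18) and 0.513 (0.450 to 0.583) after 7 days. For each pair of genes, the intervals of the 2 labels did not overlap at either time point.

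**Figure D2:**
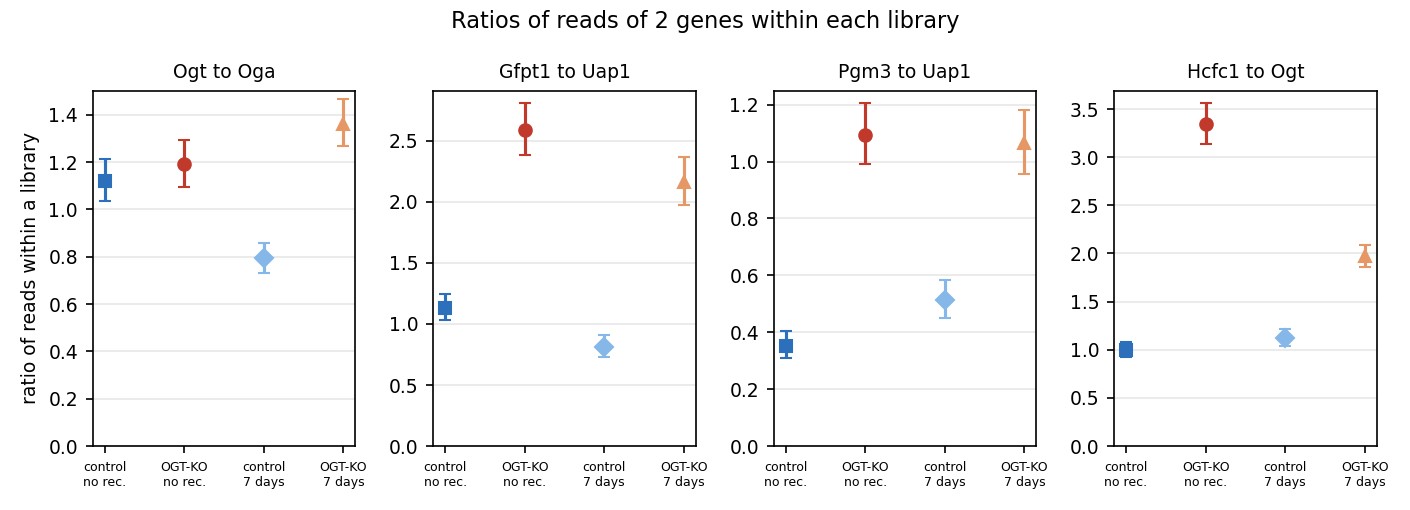
Ratio of the reads of 2 genes within each of the 4 libraries, for Ogt to Oga, Gfpt1 to Uap1, Pgm3 to Uap1 and Hcfc1 to Ogt; the vertical axes start at 0, points are single pooled libraries and bars are 95% exact intervals for counting error only. Gfpt1 to Uap1 was 2.58 and 2.16 under OGT-KO against 1.13 and 0.815 under control, while Ogt to Oga parted the labels only after 7 days, at 1.36 and 0.793.

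Nagk, which salvages free N-acetylglucosamine by phosphorylating it, had the largest label difference of the 9 genes of the set past the minimum at the deposited scaling. Nagk (ENSMUSG00000034744, chromosome 6) had 42.8 CPM under OGT-KO and 13.4 CPM under control with no recovery, and then 37.1 and 10.3 CPM after recovery. Both OGT-KO libraries were more than 2-fold above both control libraries. The ratios were 3.19 (2.80 to 3.66) and 3.60 (3.09 to 4.21). The log2 differences of 1.60 and 1.75 were above those of 88.6% and 89.4% of genes, so about 1 gene in 10 differed by more. With median-ratio scaling they were 0.92 and 1.11, and with no recovery Oga (-1.01) and Ogt (-0.93) then differed by more. There were 0.472 (0.437 to 0.510) Nagk reads per Gfpt1 read under OGT-KO and 0.299 (0.261 to 0.342) under control before recovery, and 0.561 (0.515 to 0.611) and 0.360 (0.306 to 0.423) after 7 days.

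Eogt (ENSMUSG00000035245, chromosome 6) glycosylates EGF repeats of secreted and membrane proteins in the endoplasmic reticulum, a compartment in which Ogt does not act. It had 15.1 CPM under OGT-KO and 5.74 CPM under control with no recovery, and then 15.0 and 6.31 CPM after recovery. The 2 libraries of each label were nearly level. The ratios were 2.64 (2.14 to 3.27) and 2.37 (1.93 to 2.94), and the log2 differences 1.26 and 1.13, 0.75 and 0.65 relative to the median gene, and 0.61 and 0.51 with median-ratio scaling. Its mean of 10.5 CPM passed the minimum only through the OGT-KO libraries.

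Hcfc1 (ENSMUSG00000031386, chromosome X, minus strand, 26 exons) encodes HCF-1, a transcriptional coregulator that Ogt binds, glycosylates and cleaves. It had 184.9 CPM under OGT-KO and 64.7 CPM under control with no recovery, and then 153 and 62.5 CPM after recovery. Both OGT-KO libraries were more than 2-fold above both control libraries, and the control libraries were nearly level. The ratios were 2.86 (2.69 to 3.04) and 2.45 (2.30 to 2.62), and the log2 differences of 1.5 and 1.28 were 0.99 and 0.80 relative to the median gene and 0.79 and 0.60 with median-ratio scaling. Ogt and Hcfc1 lie on the same chromosome, and their reads were level under control with no recovery, at 1.0 (0.928 to 1.08) Hcfc1 reads per Ogt read. The ratio was 1.12 (1.04 to 1.22) under control after 7 days, 1.97 (1.86 to 2.09) under OGT-KO after 7 days and 3.34 (3.14 to 3.56) under OGT-KO with no recovery.

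Counted over the 9 genes past the minimum, 5 were at least 2-fold higher under OGT-KO with no recovery (Gfpt1, Pgm3, Nagk, Eogt and Hcfc1), beside 24.4% of all genes compared, and 0 were at least 2-fold lower, beside 5.69%. After 7 days 4 were at least 2-fold higher (the same genes without Pgm3), beside 22.9%, and 0 lower, beside 4.27%. The median log2 difference of the 9 was 1.0 and 0.82, beside 0.51 and 0.48 over all genes. The 4 past 2-fold at both times stand beside 19.2% of genes that were higher and 3.74% that were lower. Nagk, Eogt and Hcfc1 had both OGT-KO libraries at least 2-fold above both control libraries, as had 17.3% of genes, and 0 of the 9 had the reverse, as had 3.35%. Eogt entered these counts only because it was high under OGT-KO, and without it they are 4 and 3 of 8 at the 2 times, 3 at both and 2 with the libraries parted. By any amount, 6 of the 9 had both OGT-KO libraries above both control libraries, beside 70% of genes, and 2, Oga and Uap1, had them below, beside 16.6%. With median-ratio scaling 0 of the 9 were at least 2-fold higher with no recovery and 1, Nagk, after 7 days, while 1, Oga, was at least 2-fold lower with no recovery. Among all genes past 2-fold, 81.1% and 84.3% were the higher under OGT-KO at the deposited scaling and 40.4% and 49.6% with median-ratio scaling.

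**Figure D3:**
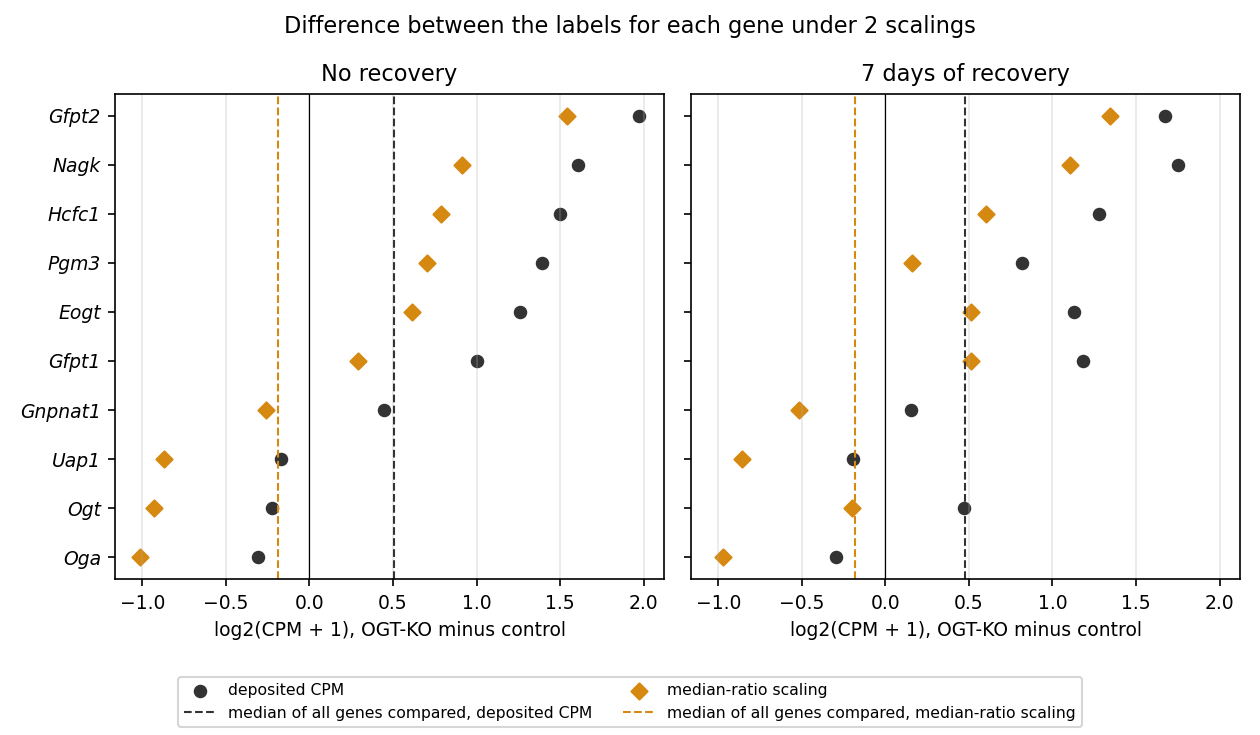
Difference in log2(CPM + 1) between the libraries labelled OGT-KO and control for the 10 genes, with no recovery (left) and after 7 days (right); circles are the deposited scaling, diamonds median-ratio scaling, and dashed lines the median of all genes compared under each. The order of the genes was kept by the scaling with no recovery, while the position of 0 was not: Ogt after 7 days and Gnpnat1 at both time points lie on opposite sides of 0 under the 2 scalings.

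The marker genes of other liver cell types differed between the labels as well. All 10 stellate cell and fibroblast markers were at least 2-fold higher under OGT-KO at both time points, and their summed level was 3537 and 4353 CPM under OGT-KO against 247 and 177 CPM under control. All 5 bile duct markers compared were higher, with sums over the 6 of 1157 and 1469 against 53.9 and 69.9 CPM, and so were all 8 macrophage markers compared, with sums over the 10 of 951 and 665 against 259 and 97.2 CPM. Of the 8 endothelial markers 4 were at least 2-fold higher with no recovery and 2 after 7 days (sums of 514 and 376 against 254 and 172 CPM). Some of these markers passed the minimum only through the OGT-KO libraries, which favoured their being counted as higher. Among them Krt19, Krt7, Epcam, Acta2, Des, Lum, Lyve1 and Cx3cr1 were under 10 CPM in both control libraries. Of the 12 hepatocyte markers 5 were at least 2-fold lower with no recovery and 4 after 7 days, with sums of 68124 and 79484 under OGT-KO against 95455 and 104174 CPM under control. Over all genes 24.4% were higher and 5.69% lower with no recovery, and 22.9% and 4.27% after 7 days. With median-ratio scaling 9 and then 7 hepatocyte markers were lower, and 6 and 8 macrophage and 1 and 2 endothelial markers higher. The stellate cell and bile duct counts were unchanged. None of the 7 lymphocyte and neutrophil markers in the table reached the minimum, and their sums were 15.7 and 19.5 against 3.62 and 1.75 CPM. No defining marker of the hepatocyte, macrophage, stellate, endothelial or bile duct lists was at 0. The part of these cell types in the differences of Nagk, Gfpt1, Gfpt2, Pgm3, Eogt, Hcfc1, Ogt and Oga was not tested, and in whole liver fewer cells of a type and less RNA per cell cannot be told apart.

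None of the 9 genes differed by 2-fold with recovery under either label, and few genes did: under control 0.245% were at least 2-fold higher and 0.96% lower, and under OGT-KO 1.04% and 0.435%. Gfpt1 was lower after recovery under both labels, by 0.63 on the log2 scale under control (from 44.8 to 28.6 CPM) and by 0.45 under OGT-KO (from 90.7 to 66.2 CPM). Oga was higher after recovery by nearly equal amounts, 0.28 under control and 0.29 under OGT-KO. Uap1 was lower by 0.17 and 0.19. These 3 genes kept one direction under every scaling run, and for each the counting interval of the ratio excluded 1 under both labels.

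Ogt and Pgm3 differed in direction with recovery between the labels. The share of all genes that did so was not counted. Ogt was lower after 7 days under control, with a ratio of 0.861 (0.795 to 0.932), and higher under OGT-KO, with a ratio of 1.40 (1.31 to 1.51). Pgm3 was the reverse, at 1.29 (1.10 to 1.51) under control and 0.849 (0.769 to 0.938) under OGT-KO. Dop1a, which overlaps Pgm3, was higher by 0.48 under control and differed by -0.13 under OGT-KO. Nagk was lower under both labels, at 0.769 (0.640 to 0.924) and 0.867 (0.790 to 0.952). For Gnpnat1 and Hcfc1 the interval excluded 1 only under OGT-KO, at 0.796 (0.735 to 0.861) and 0.829 (0.792 to 0.867), and whether this differs from control was not tested. The interval for Gfpt2 also excluded 1 only under OGT-KO, at 0.660 (0.482 to 0.898), since 10 and 6 reads left 0.191 to 1.94 under control. For Eogt both intervals held 1.

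Levels between genes were compared per kilobase of the principal transcript of the annotation. Averaged over the 4 libraries, Nagk (18.4 CPM per kilobase), Gnpnat1 (18.3), Uap1 (15.4) and Hcfc1 (14.3) came above Ogt (11.8) and Oga (11.4). Pgm3 (9.65) and Gfpt1 (9.23) followed, and Eogt (2.38) and Gfpt2 (0.737) were the lowest 2 in each library. The order of the upper 8 was not the same in the 4 libraries. Nagk was the most abundant per kilobase in both OGT-KO libraries, at 30.5 and 26.4, and had 9.54 and 7.34 under control, where Uap1 led with no recovery (17.3) and Gnpnat1 after 7 days (16.1). Gfpt1 was last of the 8 in both libraries after 7 days, at 10.6 under OGT-KO and 4.59 under control. The place of Nagk depends on the length used: with all exons merged it was eighth of 10. Neighbours such as Nagk and Gnpnat1, or Ogt and Oga, have overlapping ranges over the libraries.

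The genes whose profile over the 4 libraries was most like that of Ogt, by the Euclidean distance of centred log2(CPM + 1), were Pebp1, Tmem245, Nmt2, Hdhd3 and Brcc3, at distances of 0.05 to 0.08. Pebp1, the closest, had 105, 119, 140 and 104 CPM in the order OGT-KO and control with no recovery, then OGT-KO and control after 7 days. For Oga they were Zfand1, Stx17, Zhx1, Zbtb37 and Mrps9, at 0.05 to 0.07. With 4 points, a close match among 8963 genes is a description of these libraries only.

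The genes that supply the pathway with its substrates differed in both directions. The counts of list genes stand beside 24.4% higher and 5.69% lower over all genes with no recovery, and 22.9% and 4.27% after 7 days. Of 11 compared, 5 were at least 2-fold higher and 4 lower under OGT-KO with no recovery, and 3 and 2 after 7 days, with medians of 0.72 and 0.89. With median-ratio scaling the balance turned, to 2 higher and 5 lower and then 3 and 5. Hk1, the hexokinase of most tissues outside hepatocytes, had 23.4 and 5.41 CPM with no recovery and 25.9 and 3.46 CPM after 7 days (OGT-KO, then control). The OGT-KO library was the higher of each pair, by 1.93 and 2.59 on the log2 scale, and Hk1 passed the minimum mean only through the OGT-KO libraries. Glul, the glutamine synthetase of pericentral hepatocytes, was lower under OGT-KO, at 155 and 166 CPM against 1043 and 1150 CPM.

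On the side of breakdown and turnover of amino sugars, 3 of 6 genes compared were at least 2-fold higher under OGT-KO at each time point and 0 lower (medians of 0.98 and 0.97), and with median-ratio scaling 2 and 1 were (medians of 0.27 and 0.31). Among them were Hexa (1.43 and 1.14), a subunit of the lysosomal hexosaminidases, and Amdhd2 (1.76 and 1.51), the deacetylase that runs against Gnpnat1. In the sialic acid branch 1 of 5, Nans (1.33 and 1.93), the synthase of sialic acid phosphate, was past 2-fold at both times. Among 8 genes of UDP-sugar transport and conversion 2 were at least 2-fold higher with no recovery and 1 after 7 days. With median-ratio scaling 0 and then 1 gene of each of these 2 lists was at least 2-fold higher, while 1 of each with no recovery and 1 of the sialic acid branch after 7 days was at least 2-fold lower. The medians of these lists were 0.16 and 0.27 for sialic acid and 0.53 and 0.63 for UDP-sugar transport and conversion.

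Among the transferases that consume UDP-GlcNAc, 1 of 6 for N-glycans was at least 2-fold higher with no recovery and 2 after 7 days (medians of 0.74 and 0.68), with Mgat4b at 1.48 and 1.19. Of 6 genes of hyaluronan and heparan sulfate synthesis 1 was, Ext1, at 1.10 and 1.13 (medians of 0.51 and 0.70). None of the 3 genes of the GPI anchor (0.56 and 0.59) or of the 2 mucin-type and poly-LacNAc transferases compared (0.13 and 0.10) was past 2-fold. Of 8 genes compared in a list of O-glycosylation enzymes near Eogt and Notch receptors, 2 were at least 2-fold higher with no recovery and 3 after 7 days (0.53 and 0.81), and both Pofut2 (1.46 and 1.24), the fucosyltransferase of thrombospondin repeats, and the receptor Notch1 (1.27 and 1.08) were so at both times. None in these 5 lists was at least 2-fold lower at the deposited scaling. With median-ratio scaling none was at least 2-fold higher, and 1 N-glycan gene with no recovery and 1 mucin-type or poly-LacNAc gene at each time were at least 2-fold lower.

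Of 21 nuclear partners of Ogt and HCF-1 compared, 4 were at least 2-fold higher under OGT-KO with no recovery and 1 after 7 days, with medians of 0.63 and 0.52. These shares lie below those over all genes, and with median-ratio scaling 0 of the 21 were past 2-fold at either time. The 1 at both times was Bap1 (1.54 and 1.33), the deubiquitinase that joins HCF-1 and Ogt in one complex. Of 7 genes of the stress responses of the endoplasmic reticulum, 2 were at least 2-fold higher at both times, beside 19.2% of all genes. The list medians were 0.65 and -0.00. Hspa5 (-0.19 and -0.00), Ern1 (0.35 and -0.09) and Atf6 (0.73 and 0.32) were within 2-fold. Eif2ak3, the kinase PERK, was higher by 1.32 and 1.28. Ddit3, the stress factor CHOP, had 93.8 CPM under OGT-KO and 12.3 CPM under control with no recovery, and then 23.8 and 5.31 CPM after recovery. It was lower after recovery by 1.93 under OGT-KO and by 1.08 under control. Xbp1, a factor that binds the GACGTG core, was lower under OGT-KO, at 218 and 237 CPM against 282 and 443 CPM. There were 2.40 and 3.58 Xbp1 reads per Gfpt1 read under OGT-KO and 6.31 and 15.5 under control. Gene totals do not separate the spliced form of Xbp1. Atf4 differed by 0.65 with no recovery and by -0.20 after 7 days, and its difference with no recovery turned to -0.06 with median-ratio scaling. At that scaling 1 of these 7 genes was at least 2-fold higher and 1 lower at each time, with list medians of -0.06 and -0.69.

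Of 12 genes often used as references 3 were at least 2-fold higher under OGT-KO with no recovery and 4 after 7 days (medians of 0.26 and 0.46), among them Actb at 1.63 at each time and Ywhaz at 1.56 and 1.39. With median-ratio scaling 0 were higher at either time and 1 was lower with no recovery (medians of -0.45 and -0.21). The direction of each list gene named above as past 2-fold at both times was the same under each of the 3 other scalings, but not its size. With median-ratio scaling Hk1, Glul and Ddit3 were still past 2-fold at both times. Amdhd2 was so only with no recovery (1.06, then 0.85) and Nans only after 7 days (0.63, then 1.27). Hexa, Mgat4b, Ext1, Pofut2, Notch1, Bap1, Eif2ak3, Actb and Ywhaz were within 2-fold at both times, at 0.40 (Ext1) to 0.91 (Actb) with no recovery.

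**Figure D4:**
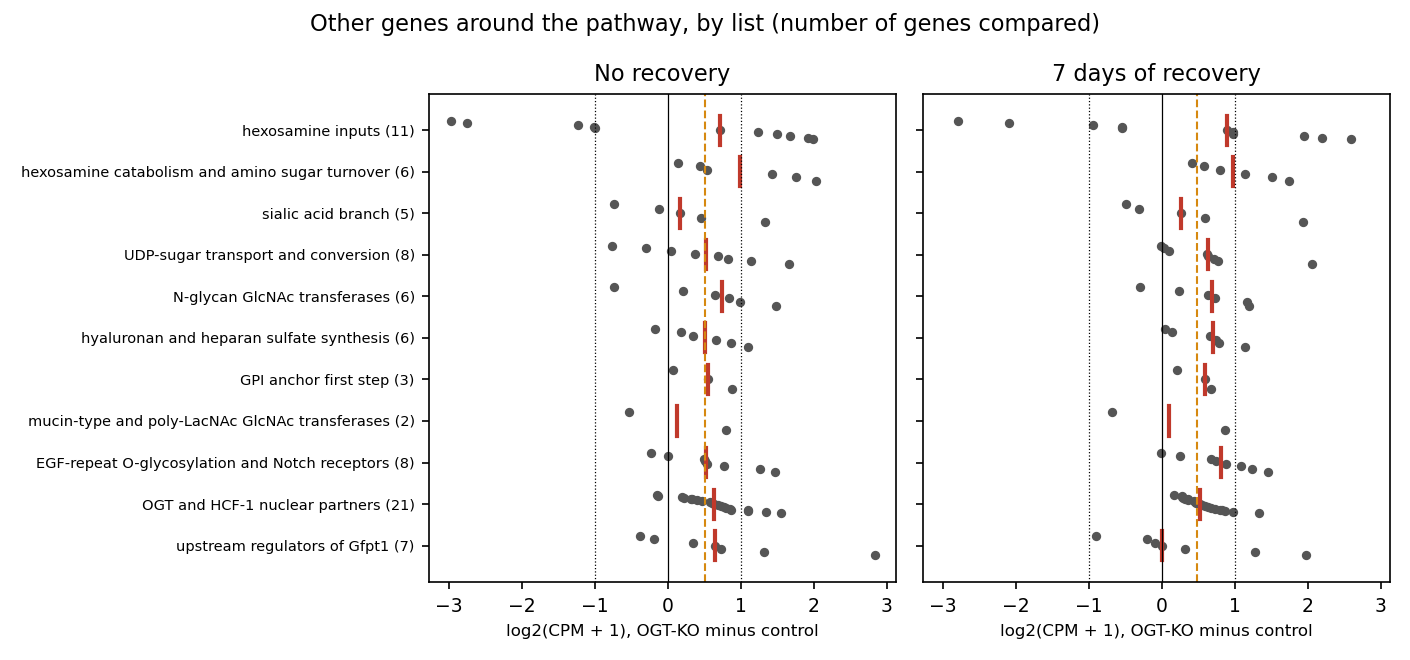
Difference in log2(CPM + 1) between the libraries labelled OGT-KO and control for the genes of 11 lists around the pathway, with no recovery (left) and after 7 days (right); each point is 1 gene past the minimum mean, red bars are list medians, the dashed line is the median of all genes compared and dotted lines mark 2-fold. The substrate genes lie on both sides of 0, with 5 at least 2-fold higher and 4 lower with no recovery, and the medians of most other lists lie near the dashed line at 0.51 and 0.48. The list shown as upstream regulators of Gfpt1 holds the 7 genes of the stress responses of the endoplasmic reticulum.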

How the data were processed

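Total RNA from liver was isolated with TRIzol and mRNA libraries were made with a Tecan kit, from equal pools of 3 mice per condition, and sequenced on 2 lanes. The submitters' processing notes name STAR, DESeq2 and the build GRCm39, with no versions. The authors deposited 1 table of CPM, in which each of the 4 columns sums to 1000000, and 0 of its value columns were left unused. Of the values, 100.0% were whole multiples of 1 read (tolerance 0.01 reads), so whole reads were recovered. The counting tool, its strandedness and the filter that left 13903 genes were not given in the sources used here. Samples were grouped by their titles.

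Differences of log2(CPM + 1) were taken between libraries for the 8963 genes whose mean CPM was 10 or more, and called at 2-fold. This scale understates differences of low genes. Each condition has 1 library, and no test between conditions was made, nor a fit of label and time over the 4 libraries. Exact intervals (95%, Clopper-Pearson and its ratio form) came from the reads and, like the floor of 3 reads, cover counting error only. An exact binomial test on the reads of 2 libraries, with Benjamini-Hochberg adjustment, was run as an alternative that compares libraries, not conditions. The other alternatives were pseudocounts of 0.1 and 10, upper-quartile and median-ratio scaling, scaling without the 100 genes of highest mean, no minimum or a mean of at least 50, a 1.5-fold call and merged exon lengths. Gene models came from GENCODE M21 (GRCm38) and promoters from RefSeq (GRCm38.p6). Since the files use GRCm39, no gene spans are given. Python 3.11.15, numpy 2.4.6, pandas 2.3.3 and scipy 1.17.1 were used, and the procedures were tested on simulated data. The simulated reads had counting error only, without spread between livers or the composition difference of these libraries, so neither was covered.

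The 10 genes, the lists around them and the markers were chosen with earlier results of these data known. Named are all 10 genes, up to 4 genes per list that were past 2-fold at both times with the largest mean difference, those on which a result of the 10 turns, and the 5 genes most like Ogt and Oga. Some list genes that this rule names are not reported here.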

Additional observations from a re-analysis of the deposited data

Results flagged for a closer look

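For each of the 3 genes taken up here the single library of one group differed one way and that of the other the opposite way, with counting intervals that exclude 1. Other genes also differed in opposite directions: Notch2 differed with recovery by -0.31 under control and by 0.38 under OGT-KO. Over all genes compared, 9.22% had label differences of opposite sign at the 2 time points, a share that applies to Ogt only. Pgm3, Nans and Notch2 had label differences of one sign. How many of all genes had recovery differences of opposite sign under the labels was not counted. None of these contrasts between groups was tested. Ogt differed between the labels by -0.22 with no recovery and by 0.47 after 7 days at the deposited scaling, where the second value turned to -0.20 with median-ratio scaling. The same contrast seen with recovery is that Ogt differed by -0.21 under control and by 0.48 under OGT-KO, and these directions were kept under each scaling run. Pgm3 differed with recovery by 0.35 under control and by -0.23 under OGT-KO. Nans, the sialic acid phosphate synthase, differed with recovery by -0.34 under control and by 0.26 under OGT-KO.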

How the results depend on the processing

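The counts of genes of the set past 2-fold depend on the scaling and on the pseudocount. The 5 that were higher under OGT-KO with no recovery became 3 with a pseudocount of 10, 3 with upper-quartile scaling, 0 with median-ratio scaling and 2 with a mean of at least 50, which left 5 genes of the set. The 4 that were higher after 7 days became 2 with a pseudocount of 10, 1 with upper-quartile scaling, 1 with median-ratio scaling, 2 without the 100 most abundant genes and 2 with a mean of at least 50. The 3 with both OGT-KO libraries at least 2-fold above both control libraries became 1, 0 and 1 with upper-quartile scaling, median-ratio scaling and a mean of at least 50. With median-ratio scaling 1 gene was at least 2-fold lower with no recovery where there had been 0, and with a 1.5-fold call 1 gene, Gfpt1, was lower after recovery under control where there had been 0. The other 75 of 89 recomputed counts were within 1.5 times the reported ones, and of 236 recomputed differences of single genes 65 moved beyond their counting interval and 0 of those past 2-fold turned sign.

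Over all genes, 2185 were at least 2-fold higher and 510 lower with no recovery, and 2050 and 383 after 7 days. With median-ratio scaling these were 935 and 1381, then 1038 and 1055, with upper-quartile scaling 1396 and 809, then 1313 and 634, and without the 100 most abundant genes 1636 and 677, then 1469 and 533. A pseudocount of 10 gave 1367 and 414, then 1344 and 305, a mean of at least 50 gave 525 and 351, then 503 and 281, no minimum 4595 and 605, then 4492 and 461, and a 1.5-fold call 4077 and 907, then 3856 and 674. By the exact binomial test on reads, 8016 and 7904 genes of 8963 had an adjusted p under 0.05, all genes past 2-fold among them. That test compares libraries. Counting error alone leaves the side of the 2-fold line open for Gfpt1 with no recovery (1.87 to 2.19). After 7 days it does so for Eogt (1.93 to 2.94) and Pgm3 (1.59 to 2.06). The labels give no replicate numbers to pair libraries by, and a comparison of the labels over both time points, with time as a block, was not run. With 1 library per condition, leaving one out removes its comparisons.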
